A study of Rattus norvegicus with 2 samples.

Results

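Srebf1, Insig1, Insig2, Mlxipl and Mid1ip1 encode 5 regulators of lipid synthesis in the liver, and every probe set that names 1 of them alone in the platform annotation was taken, which gave 6 of 15866 probe sets and 5 of 10411 named genes. The genes were chosen by their log2 ratios between these arrays, in which earlier results had Srebf1, Insig1 and Insig2 higher and lipogenic enzymes lower with high fat, so that contrast is described here and not tested. Total RNA from liver had been hybridised to 2 oligonucleotide arrays, 1 for a rat on a high-fat diet and 1 for a rat on a low-fat diet. Both rats were of the SD strain, described as 4 weeks old with 9 weeks of feeding, and both diets were based on AIN93G, a purified rodent diet. How much fat each diet held, the sex of the rats, how many livers went into each RNA, the feeding state and the hour of collection were not given in the sources used here. With 1 array per diet there is no replicate check, no error between animals and no p-value, and every difference below is between these 2 arrays.

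Srebf1 encodes SREBP-1, a transcription factor made as a precursor in the membrane of the endoplasmic reticulum, and its liver form SREBP-1c turns on genes of fatty acid synthesis when insulin is high. The Insig proteins hold the escort protein Scap, and with it the SREBP precursor, in the endoplasmic reticulum, so that the precursor is not carried to the Golgi and cut. The Insig1 gene is itself an SREBP target, while in mouse liver a transcript of Insig2 is known to be lowered by insulin and raised in fasting. Mlxipl encodes ChREBP, which binds DNA with Mlx and turns on glycolytic and lipogenic genes when glucose or fructose is plentiful. Mid1ip1 encodes a protein related to Thrsp (Spot 14) that promotes assembly of acetyl-CoA carboxylase into its active polymers.

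Signals are intensities on a linear scale. The median over the 15866 probe sets was 14.0 on the high-fat and 15.7 on the low-fat array, and each median served as the floor of its array. A probe set counted as measured where its mean log2 signal reached the mean of the floors, which left 7864 probe sets and 6012 genes. Log2 ratios were taken as high-fat over low-fat and centred on their median over the measured probe sets, which was -0.12 before centring. A positive ratio smaller than that shift changes sign without centring. Liver identity showed in the hepatocyte markers, of which 9 of 9 named on the array were measured, and Alb, the albumin gene, had 9255.6 on the high-fat and 9119.2 on the low-fat array. In RNA from whole tissue, fewer cells of a type and less RNA per cell cannot be told apart.

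All 5 genes were measured, and all 6 probe sets were higher on the high-fat array. At the level of 1.5-fold, 4 of the 6 were higher and none was lower, beside 4.29% of measured probe sets that were at least 1.5-fold higher and 5.52% that were at least 1.5-fold lower. At 2-fold it was 1 of the 6, beside 0.776%. These counts follow from how the genes were picked, and nothing is read from them. The median log2 ratio of the 6 probe sets was 0.65, against 0 over all measured probe sets, where the centring sets it.

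Insig2 had the largest difference of the 5 genes. Its probe set, 1389377_at, had a signal of 446.3 on the high-fat array and 213.9 on the low-fat array. The centred log2 ratio was 1.18, a 2.26-fold higher signal, and the ratio of the signals as deposited was 2.09. Among the 786 probe sets in the same of 10 equal bins of mean signal, 4 had a ratio at least this high, itself included. The robust SD of the log2 ratio in that bin was 0.23, which is a spread across probe sets and not between animals.

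Insig1, the other Insig gene, had 153.3 on the high-fat and 106.4 on the low-fat array with probe set 1367894_at. Its log2 ratio was 0.64, or 1.56-fold, and 12 of 787 probe sets of like signal were at least as high. The log2 ratio of Insig2 was 0.53 above that of Insig1. For scale, the ratios of the brightest pair of probe sets for the same gene differed by a median of 0.25 across the 696 genes with at least 2 measured. Both Insig genes were thus on the same side, with the larger difference in Insig2, and whether the Insig genes differ in their response was not tested.

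Srebf1 was represented by 2 probe sets. The brighter, 1388426_at, had 279.4 on the high-fat and 192.3 on the low-fat array. The dimmer, 1371104_at, had 83.8 on the high-fat and 57.7 on the low-fat array. Both gave a log2 ratio of 0.66, or 1.58-fold and 1.57-fold. The brighter probe set was 3.33 times the dimmer on the high-fat array and 3.33 times on the low-fat array, and their log2 ratios differed by 0.0006. None of the other genes with at least 2 measured probe sets had a smaller difference between its brightest pair. Probe sets of the same array share the sample and the hybridisation, so this closeness speaks only to the reading of these 2 arrays. Whether either probe set distinguishes the SREBP-1a from the SREBP-1c transcript was not given in the sources used here. In their bins of signal, 23 of 786 and 13 of 786 probe sets were at least as high as the brighter and the dimmer probe set.

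Mlxipl and Mid1ip1 had the smallest differences. Mlxipl, the ChREBP gene, had 39.5 on the high-fat and 37.4 on the low-fat array with probe set 1368614_at, a log2 ratio of 0.20, or 1.15-fold. It was the dimmest of the 6 probe sets, at 2.82 times the high-fat floor and 2.38 times the low-fat floor. Of 786 probe sets of like signal 196 had at least this ratio, and it lay within the robust SD of 0.34 there. Mid1ip1 had 161.4 on the high-fat and 142.1 on the low-fat array with probe set 1372091_at, a log2 ratio of 0.30, or 1.23-fold, and 77 of 787 probe sets of like signal were at least as high. Signals of different probe sets depend on their probes, so no order of abundance among the 5 genes is drawn from them.

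**Figure D1:**
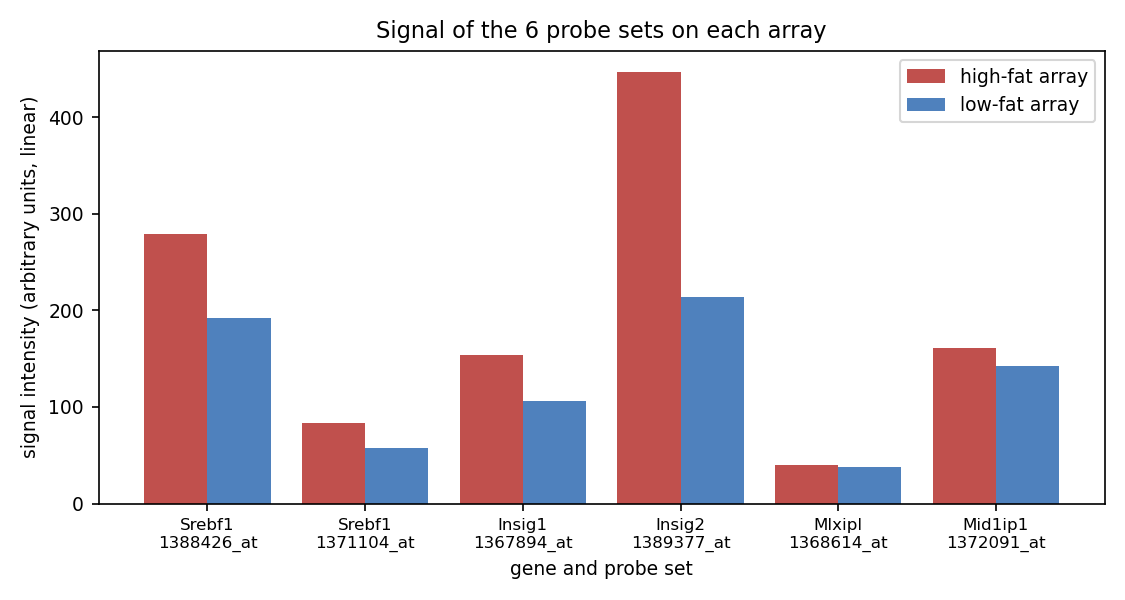
Signal intensity (vertical axis, linear, arbitrary units) of each of the 6 probe sets on the high-fat array (left bar) and the low-fat array (right bar), 1 array per diet and no error bars. Insig2 shows the widest gap, 446.3 against 213.9, and Mlxipl the narrowest, 39.5 against 37.4.

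**Figure D2:**
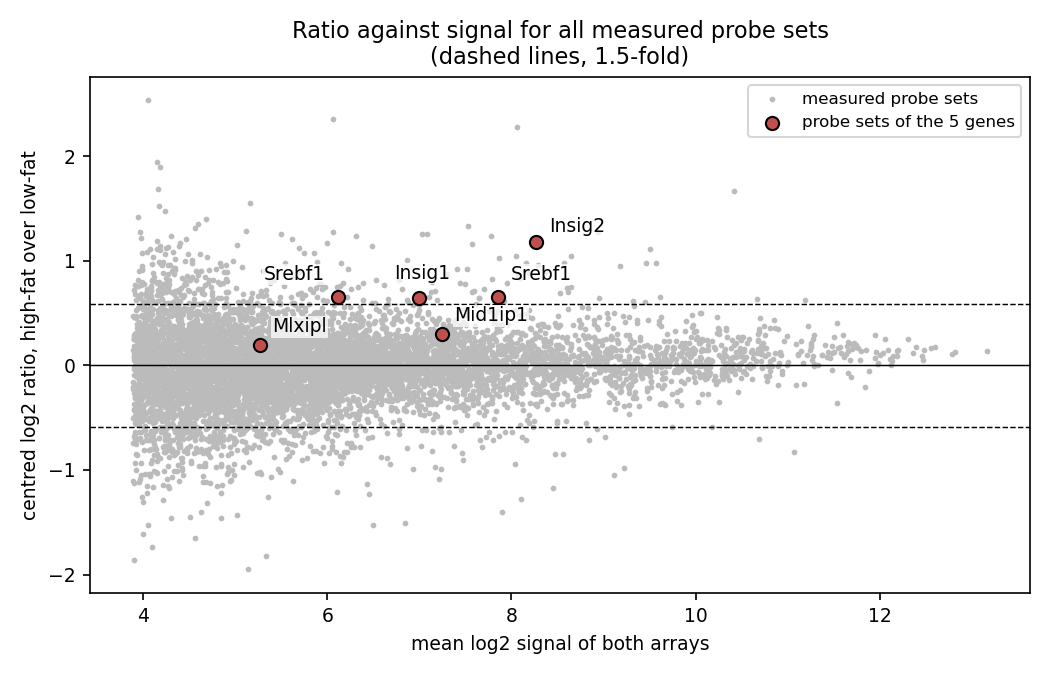
Centred log2 ratio between diets, high-fat over low-fat (vertical axis) against the mean log2 signal of both arrays (horizontal axis) for 7864 measured probe sets, with the 6 probe sets of the 5 genes in red and dashed lines at 1.5-fold. Srebf1 (both probe sets) and Insig1 sit just above the upper line at 0.64 to 0.66, Insig2 well above it at 1.18, and Mid1ip1 and Mlxipl below it.

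The direction was the same without centring, but 3 of the 4 probe sets no longer reached 1.5-fold. As deposited, the signals were 1.45-fold higher for both Srebf1 probe sets and 1.44-fold for Insig1, and Insig2 was the 1 probe set still past 1.5-fold. A pseudocount of 50 also left 1 of the 6 past 1.5-fold. Srebf1 and Insig1 therefore lie close to that level on either side, depending on the scaling, while Insig2 stayed past it under every scaling and floor run.

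**Figure D3:**
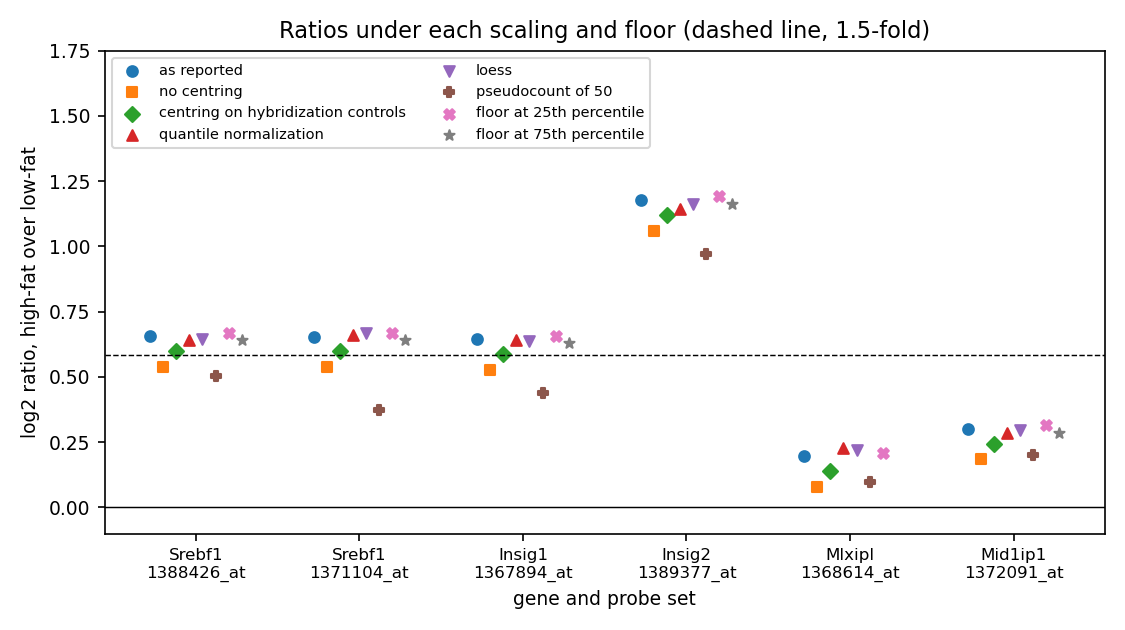
Log2 ratio between diets, high-fat over low-fat (vertical axis) for each of the 6 probe sets under the reported setting and under 7 other scalings and floors (symbols), with a dashed line at 1.5-fold. All values are above 0; Insig2 ranges from 0.97 to 1.19, and Mlxipl, which was not measured with the floor at the 75th percentile, from 0.08 to 0.23.

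The sequences before the starts of Srebf1, Insig1 and Insig2 are shown because these genes were higher together and because SREBP sites, E-boxes and NF-Y sites are the known elements of such promoters. Each window runs from 250 bases before to 50 bases after an annotated start in RefSeq, and all 5 genes had at least 1 window in that table. Capitals mark matches on either strand to CACGTG (E-box, the core bound by many helix-loop-helix factors), CCAAT (NF-Y box) and GGGCGG (GC box). The upstream and the downstream Srebf1 start lie 10.2 kb apart, and the Insig2 start in the table lies 12.8 kb inside the outer end of the annotated gene, so that window may not be the one used in these livers.
Srebf1 upstream start, chr10:45529115-45529414, GRCr8, minus strand: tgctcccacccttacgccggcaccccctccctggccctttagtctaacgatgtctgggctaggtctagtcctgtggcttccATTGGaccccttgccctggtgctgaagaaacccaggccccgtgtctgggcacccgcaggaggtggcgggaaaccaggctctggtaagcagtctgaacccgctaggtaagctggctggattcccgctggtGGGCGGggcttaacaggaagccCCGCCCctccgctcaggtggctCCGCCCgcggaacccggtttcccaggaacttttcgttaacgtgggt
Srebf1 downstream start, chr10:45518961-45519260, GRCr8, minus strand: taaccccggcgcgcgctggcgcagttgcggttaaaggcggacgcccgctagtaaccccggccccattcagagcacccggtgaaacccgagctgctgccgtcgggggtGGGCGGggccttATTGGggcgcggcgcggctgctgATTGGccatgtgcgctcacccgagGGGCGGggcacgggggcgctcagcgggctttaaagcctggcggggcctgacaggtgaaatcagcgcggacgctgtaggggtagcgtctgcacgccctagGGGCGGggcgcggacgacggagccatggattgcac
Insig1, chr4:8057720-8058019, GRCr8, minus strand: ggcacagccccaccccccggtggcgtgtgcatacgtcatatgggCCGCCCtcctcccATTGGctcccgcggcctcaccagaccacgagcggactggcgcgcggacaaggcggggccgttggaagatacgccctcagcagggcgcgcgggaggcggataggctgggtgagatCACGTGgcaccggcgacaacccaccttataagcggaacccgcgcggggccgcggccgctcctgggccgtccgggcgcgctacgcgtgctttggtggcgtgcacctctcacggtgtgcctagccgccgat
Insig2, chr13:35040049-35040348, GRCr8, minus strand: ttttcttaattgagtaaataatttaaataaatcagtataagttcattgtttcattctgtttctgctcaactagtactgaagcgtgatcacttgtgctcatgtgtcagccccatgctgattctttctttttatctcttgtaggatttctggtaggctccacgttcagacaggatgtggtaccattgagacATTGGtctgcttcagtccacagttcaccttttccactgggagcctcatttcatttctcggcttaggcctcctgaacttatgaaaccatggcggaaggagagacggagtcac

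The Insig1 window held 1 E-box, at -79 from the start, an NF-Y box at -193 and a GC box at -206. CACGTG was found in 6.42% of the 33469 windows of the same length, and in none of the other windows of the 5 genes. The downstream Srebf1 window held NF-Y boxes at -131 and -108 and 3 GC boxes, and the upstream window held 1 NF-Y box, at -169, and 3 GC boxes. Insig2 had 1 NF-Y box, at -61, and no GC box. CCAAT occurs in 37.5% and GGGCGG in 33.1% of all windows, so these matches are common. The GC content was 71.3% for Insig1, 63.7% and 70.7% for the upstream and downstream Srebf1 windows and 42.0% for Insig2, beside a median of 51.7% over all windows. The letters TCACNCCAC, a core of SREBP sites that occurs in 1.12% of all windows, were in no window of the 5 genes. The same holds for paired E-boxes spaced as in a ChREBP site, 2 copies of CACGTG with 5 bases between (0.00299%), and for a direct repeat of the kind that LXR binds, 2 copies of AGGTCA with 4 bases between (0.00598%). Strings this rare were nearly certain to be absent from so few windows, so nothing is read from their absence. Mlxipl had NF-Y boxes only and Mid1ip1 had GC boxes only. A match is a string of letters and not a shown site, and a missing match says only that these letters are not in this window. Other spellings of the sites were not searched, so a window without a match may still hold a variant of the site.

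The proteins that carry, hold or cut the SREBP precursor showed small differences. Of 14 measured genes of this list 9 were higher and 5 lower on the high-fat array, with a median log2 ratio of 0.08, and 6 were higher and 8 lower without centring. Over all 6012 measured genes 3004 were higher. At 1.5-fold, 1 was higher and none lower, beside 4.22% and 5.44% of all measured genes. That gene was Mbtps2, the site-2 protease that makes the second cut, with 20.1 on the high-fat array and 12.5 on the low-fat array. As the low-fat signal was below the floor, the fold that can be stated is a bound, at least 1.39-fold higher, which does not reach 1.5-fold. Mbtps1, the site-1 protease, had 55.6 and 71.4 on the high-fat and low-fat arrays (log2 ratio -0.24), and Scap, the escort of SREBP, had 47.1 and 48.8 (0.07). Srebf2, the gene of the sterol-regulating SREBP-2, had 39.6 and 50.3 (-0.23), the opposite side from Srebf1. Ubiquitin ligases that can act on Insig or its partners were at 0.35 for Rnf139 and 0.21 for Syvn1. Extraction factors of the same degradation route were at 0.42 for Ufd1 (-0.02 on its second probe set), 0.10 for Nploc4 and 0.21 for Vcp. A second Nploc4 probe set, not measured, was at least 1.3-fold lower, with its high-fat signal below the floor. The membrane proteins Erlin1 and Erlin2, which act in sterol-controlled degradation, were at -0.18 and -0.01. Pgrmc1, a membrane protein that binds Insig1, was at 0.20. The COPII vesicle GTPases Sar1a and Sar1b were at 0.04 (-0.04 on a second Sar1a probe set) and -0.06.

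Partners and modifiers of ChREBP went both ways. Of 8 measured genes 5 were higher and 3 lower (median 0.31). Past 1.5-fold higher were 2 of them, Ppp2ca and Crebbp, beside 4.22% of all measured genes, and neither was past it without centring. Ppp2ca, a catalytic subunit of protein phosphatase 2A, had 41.4 on the high-fat and 27.9 on the low-fat array (0.69). Crebbp, a coactivator, had 28.7 and 20.7 (0.59), and Ogt, the enzyme that adds GlcNAc to ChREBP, had 39.2 and 29.3 (0.54, and 0.25 on a second probe set). Gckr, the regulatory protein of glucokinase, had 256.9 and 200.0 (0.48). Mlx, the obligate partner of ChREBP, was on the lower side with 91.6 on the high-fat and 111.8 on the low-fat array (-0.17). Hnf4a, a hepatocyte transcription factor, was at 0.15 (-0.02 on its second probe set), the 14-3-3 gene Ywhab at -0.04 and the coactivator Ep300 at -0.12. Mlxip, the paralog of Mlxipl, was below both floors.

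The genes of the receptors known to drive Srebf1 transcription lay between -0.45 and 0.03. Nr1h3, encoding LXR alpha, had 140.6 on the high-fat and 190.5 on the low-fat array (-0.32), and Nr1h2, encoding LXR beta, had 58.5 and 62.3 (0.03). Their partner genes Rxra and Rxrg were at -0.45 and -0.23, Rxra with a signal near the floor. Among genes that LXR can induce, the sterol transporter genes Abcg5 and Abcg1 were at 0.28 and -0.64, the phospholipid enzyme gene Lpcat3 at 0.14 (0.05 on a second probe set) and the lipase gene Lpl at 0.03. Over the 8 measured genes of the list 4 were higher and 4 lower (median -0.10), and 2 were higher and 6 lower without centring. Only Abcg1 was past 1.5-fold, on the lower side, beside 5.44% of all measured genes that were lower by as much.

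Insulin and AMPK signalling genes, upstream of SREBP-1c, were lower in 13 of 16 measured members, with a median of -0.14. At 1.5-fold 1 was higher and 1 lower, beside 4.22% and 5.44% of all measured genes. The kinase genes Mtor and Akt1 were at -0.42 and -0.32. Tsc2, which restrains Mtor, had 21.9 on the high-fat and 45.6 on the low-fat array (-0.94). Pik3ca, the catalytic subunit of phosphoinositide 3-kinase, had 26.3 on the high-fat array and 13.6, below the floor, on the low-fat array, at least 1.82-fold higher, and its second probe set was at 0.43. Of the nuclear receptors named as regulators of the Insig genes, 4 of 4 measured were lower, with a median of -0.34. Nr1i2, the xenobiotic receptor PXR that raises Insig1 in mouse liver, had 122.8 on the high-fat and 206.8 on the low-fat array (-0.64). Nr1i3, its relative CAR, had 95.6 and 108.9 (-0.07), the thyroid hormone receptor gene Thrb was at -0.23, and the fourth was Rxra. Ppara, Thra and Vdr were not measured. With the floor at the 25th percentile 2 of 6 of these receptors were higher, and with no floor 3 of 7, on signals near or below the floors.

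The target genes of the same factors were mostly on the other side, which is part of how the 5 genes were picked. Of 11 measured lipogenic targets of SREBP, 10 were lower and 1 was higher. At 1.5-fold 6 were lower and none higher, beside 5.44% and 4.22% of all measured genes, and the median was -0.70. The higher one was Elovl5, an elongase of polyunsaturated fatty acids, with 1208.3 on the high-fat and 922.8 on the low-fat array (0.51), and 0.65 on a second probe set, close to the ratio of Srebf1. Acaca, the acetyl-CoA carboxylase gene, had 65.4 on the high-fat and 202.1 on the low-fat array (-1.51). Acly, which makes cytosolic acetyl-CoA, was at -1.41, and Me1, which yields NADPH, at -1.26 (-0.66 on a second probe set). Lpin1, a phosphatidate phosphatase, was at -0.94, the fatty acid synthase Fasn at -0.94 (-1.43 on a second probe set) and the desaturase Scd at -0.70. These 6 genes were on the opposite side from Srebf1, whose 2 probe sets were at 0.66. The other 5 lipogenic targets on the array were not measured, and their values were added after they were seen. Elovl6, an elongase, had 4.0 on the high-fat and 25.9 on the low-fat array and Pnpla3, a lipid droplet protein, 1.6 and 18.7, so that they were at least 1.71-fold and 1.23-fold lower. Gpam, which starts glycerolipid synthesis, had 13.0 and 16.6, at least 1.09-fold lower. Acacb, the other acetyl-CoA carboxylase, had 1.0 and 7.1 and Aacs, which makes acetoacetyl-CoA, 4.3 and 9.1, below the floor on both arrays, and no fold is given for them.

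Among the sterol targets of SREBP, the group to which Insig1 belongs as a sterol-responsive gene, 5 of 13 measured members were higher and 8 lower (median -0.26), and 3 were higher and 10 lower without centring. Fdps, an enzyme of isoprenoid synthesis, was at -0.64, with 197.3 on the high-fat and 333.3 on the low-fat array. It was the 1 member past 1.5-fold lower and none was past 1.5-fold higher, beside 5.44% and 4.22% of all measured genes. Dhcr7 and Hsd17b7, late enzymes of cholesterol synthesis, were nearest to the log2 ratio of Insig1, at 0.52 and 0.50, and Mvk was at -0.50. Idi1, an isoprenoid enzyme, was not measured, with 18.9 on the high-fat array and a signal below the floor on the low-fat array, at least 1.31-fold higher. With the floor at the 25th percentile 8 of 16 members were higher, 1 of them past 1.5-fold. Of 18 measured ChREBP targets, 15 were lower and 3 higher, with a median of -0.51. Past 1.5-fold lower were 7 of the 18 (11 without centring) and past 1.5-fold higher none, beside 5.44% and 4.22% of all measured genes. Acly, Acaca, Fasn and Me1 are among these 7 and also among the lower lipogenic targets of SREBP, so the counts are not independent. Gckr counts as higher both here and among the ChREBP partners. The members with the largest differences were Rgs16, a regulator of G-protein signalling (-1.95), Slc2a5, the fructose transporter gene (-1.83), Acaca and Acly, and Pklr, the liver pyruvate kinase gene, was at -0.55. Mlxipl, the gene of the factor itself, was at 0.20.

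Mid1ip1 can be set beside its closest relative. Thrsp, the gene of that relative, had 1958.2 on the high-fat and 2418.7 on the low-fat array (-0.19). Its other probe sets were at -0.13 and -0.22. All 3 Thrsp probe sets were thus slightly lower while Mid1ip1 was at 0.30. The carboxylase gene Acaca was the only other measured gene of this list, and Mid1, for whose product Mid1ip1 is named, and Mid2 were below both floors.

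**Figure D4:**
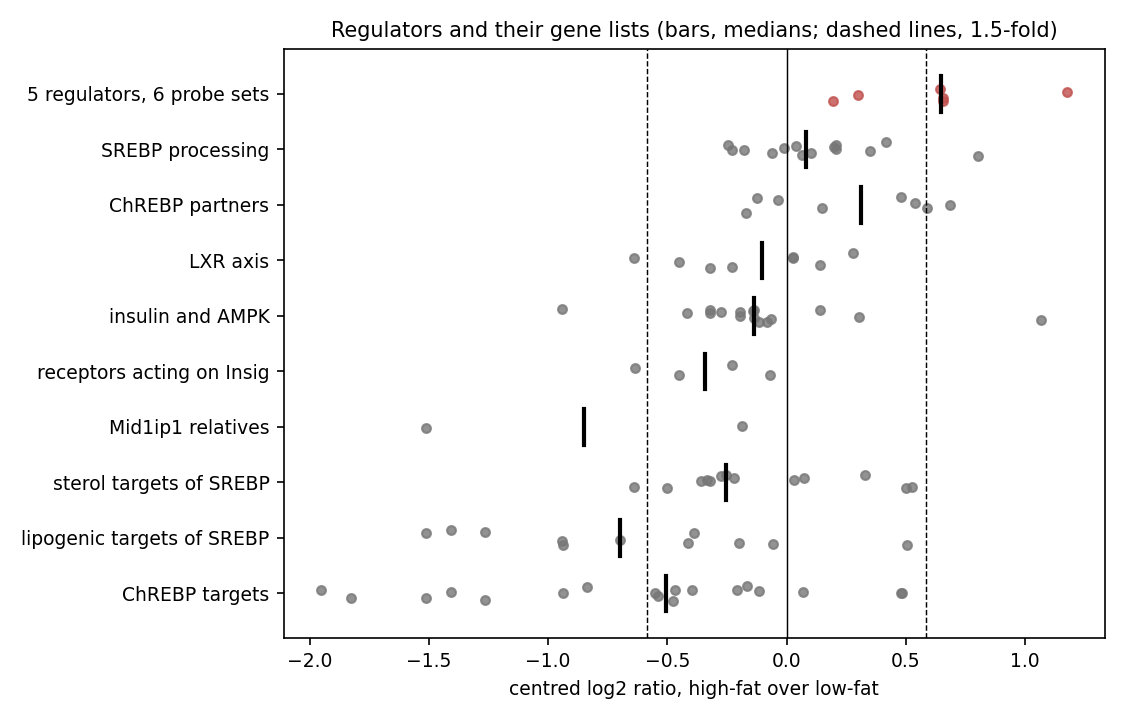
Centred log2 ratio between diets, high-fat over low-fat (horizontal axis) for the 6 probe sets of the 5 regulators (red, top row) and for each measured gene of 9 lists of regulators and targets (grey), with medians as bars and dashed lines at 1.5-fold. The regulators lie between 0.20 and 1.18, the lipogenic targets of SREBP have a median of -0.70 and the ChREBP targets of -0.51. The row labelled Mid1ip1 relatives holds Thrsp (-0.19) and the carboxylase gene Acaca (-1.51).

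The genes with the most similar pair of log2 signals on the 2 arrays were found by Euclidean distance, which over 2 arrays is only a description. For Srebf1 they were Csad, at 263.2 on the high-fat and 199.6 on the low-fat array, and Gckr, at distances of 0.10 and 0.13. For Insig1 they were Ppid and Slc17a1, at 0.05 and 0.06. For Insig2 they were Cth, at 419.1 on the high-fat and 234.1 on the low-fat array, and Aox1, at 0.16 and 0.22.

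Markers of cell types differed between the arrays as follows, and their part in the values above was not tested. All 9 hepatocyte markers were higher after centring, with a median of 0.13, against 5 of 9 without centring and 4 of 9 after loess. Their signals summed to 45202.1 on the high-fat and 44628.9 on the low-fat array. Of 6 measured Kupffer cell markers 5 were higher (2 without centring), with a median of 0.09, and the 7 markers on the array summed to 1091.8 and 1200.9 on the high-fat and low-fat arrays. All 4 measured stellate cell markers were lower under each of these scalings, with a median of -0.43, and the 8 on the array summed to 307.2 on the high-fat and 404.8 on the low-fat array. The lowest was Col1a2 at -1.06, with its high-fat signal below the floor, and its second probe set was at 0.07. Col1a1, Des, Acta2 and Pdgfrb were below both floors, and with no floor 6 of 8 stellate markers were lower and 2 higher. The 4 endothelial markers summed to 259.4 and 304.6, and both measured ones were lower. Of the cholangiocyte markers Epcam was measured, with 31.2 on the high-fat and 38.0 on the low-fat array (-0.17), and Krt19, Krt7 and Spp1 were below both floors. Among adipocyte markers, of interest because adipocytes also express Srebf1 and Mid1ip1, Cfd was measured, with 54.5 on the high-fat and 58.4 on the low-fat array, while Plin1, Lep and Fabp4 were below both floors. No marker was listed at 0.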

How the data were processed

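The deposited values are linear signal intensities, as judged from their range, with 1 value for each probe set on each array. What the authors did to the scanned images to obtain them, scaling included, was not given in the sources used here. Of 15923 rows, 57 controls were left out of gene values. Genes were named from the platform annotation where it gave 1 symbol, updated through the RefSeq gene table of GRCr8, and for a gene with several measured probe sets the brightest was used. Log2 was taken without a pseudocount after removal of 4 probe sets with a 0. The members, lists and levels were chosen with earlier results of these data known. Named were all probe sets of the members, the 4 largest ratios of each list, every measured gene of 4 lists (SREBP processing, ChREBP partners, LXR axis, Mid1ip1 relatives), set enzymes and nearest patterns. Second probe sets, Elovl5, Idi1, marker genes and genes below the floors were added after values were seen. Where 1 array was below its floor, the fold is a bound taken against that floor. No test was possible with 1 array per diet, and the number of arrays limits the precision of every value. The procedure was tested on simulated data. Software was Python 3.11.15, numpy 2.4.6, pandas 2.3.3, statsmodels 0.14.6 and matplotlib 3.10.9. Promoter sequences are RefSeq's for GRCr8.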

Additional observations from a re-analysis of the deposited data

How the results depend on the processing

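No paired analysis was possible because each diet had 1 array. All 6 probe sets of the 5 genes were higher under each of the scalings and floors run, 41 values in all. The log2 ratio ranged from 0.97 to 1.19 for Insig2, 0.44 to 0.66 for Insig1, 0.51 to 0.67 and 0.38 to 0.67 for the brighter and dimmer Srebf1 probe sets, 0.18 to 0.32 for Mid1ip1 and 0.08 to 0.23 for Mlxipl. The dimmer Srebf1 value of 0.38 and the count of 1 probe set past 1.5-fold came with a pseudocount of 50, which by construction shrinks the ratios of dim probe sets, and the count was also 1 without centring. With the floor at the 75th percentile Mlxipl was not measured.

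Of 90 list medians, 24 moved by at least 0.1 without a change of sign. A further 1, that of SREBP processing without centring, also moved by at least 0.1 and changed sign. The list called Mid1ip1 relatives also holds partner genes. As reported its 2 measured genes were Thrsp (-0.19) and the carboxylase gene Acaca (-1.51), so its median is not that of relatives alone. Without centring the medians were -0.033 for SREBP processing (0.08 as reported), 0.20 for ChREBP partners, -0.22 for the LXR axis, -0.26 for insulin and AMPK signalling, -0.82 for lipogenic and -0.37 for sterol targets of SREBP, -0.62 for ChREBP targets, -0.97 for Mid1ip1 relatives and -0.46 for receptors acting on Insig. With the pseudocount they were 0.15 for ChREBP partners, -0.56 for lipogenic targets, -0.65 for Mid1ip1 relatives and -0.087 for the receptors. The floor decided which genes entered a list. With it at the 25th percentile the medians were 0.16 for ChREBP partners, -0.92 for lipogenic and -0.079 for sterol targets, -0.17 for Mid1ip1 relatives and -0.14 for the receptors. At the 75th percentile they were 0.042 for ChREBP partners and -0.57 for lipogenic targets. With no floor they were 0.18 for ChREBP partners, -0.20 for the LXR axis, -0.91 for lipogenic targets, -0.16 for Mid1ip1 relatives and -0.044 for the receptors. Loess, quantile normalization, centring on hybridization controls, the median over probe sets and removal of probe sets whose names mark possible cross-hybridisation moved no member's ratio beyond the robust SD at its signal and no list median by 0.1, where run. Values near the floor have the least precision, which touches Mbtps2, Pik3ca, Rxra, Lpl, Thrb, Crebbp and the high-fat value of Rgs16, among others.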
